A study of Mus musculus with 7 samples.

Results

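Open chromatin was examined around 10 genes of the Notch pathway in sorted cells of the second heart field region of mouse embryos at E9.5. The set held 2 receptors (Notch1 and Notch2), 3 ligands (Jag1, Dll1 and Dll4), the glycosyltransferase gene Lfng and 4 genes of the Hes/Hey family (Hes1, Hey1, Hey2 and Heyl), out of 26180 mouse genes with a curated RefSeq start. For each gene every deposited ATAC-seq peak from 50 kb upstream to 50 kb downstream of the gene body was collected. Peaks with q at most 0.01 were merged over the 7 libraries into regions, which gave 279 regions around the 10 genes, of 210347 in the genome. The 10 windows did not overlap one another and spanned 1278.35 kb in all.

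The libraries came from 4 sorted cell populations. GFP+ cells (2 libraries, replicates 3 and 4) came from embryos with the Hoxb1GFP allele, in which GFP marks progenitors that express Hoxb1, and GFP- cells (2 libraries, replicates 1 and 2) were the unlabelled cells of the same line. Tomato+ cells (2 libraries, replicates 6 and 8) came from Mef2c-Cre;RosatdT embryos, in which a Mef2c enhancer drives Cre and the descendants of those cells keep tdTomato, and Tomato- cells (1 library, replicate 7) were the unlabelled cells of that line. Cells of several embryos were pooled before sorting, so a library is a pool and not an animal, and p-values measure only the spread between these libraries. With 2 libraries against 2, an exact permutation test could not give a p below 0.333, so single values were not tested in that way. In such bulk samples, fewer cells with an open site and a site less open in each cell cannot be told apart. GFP+ and Tomato+ cells differ both in population and in mouse line, and the effects of these cannot be told apart. The header of the peak list labelled Tomato+ replicate 6 carries a run name with YFP in place of Tomato. The label was followed, and values of this library are subject to that doubt. The Tomato mark follows lineage and the GFP mark follows present expression of Hoxb1, and the 2 marks may therefore overlap in some cells.

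Notch is a membrane receptor that is activated by ligands on the neighbouring cell. Cleavage then frees its intracellular part, which joins the DNA-binding protein RBPJ in the nucleus and turns on genes such as those of the Hes and Hey families of transcriptional repressors. In the heart the pathway is known for its part in outflow tract formation, in the endocardium and at the boundary between chambers and the atrioventricular canal. ATAC-seq reads how easily a transposase cuts the DNA of a site, and an open site is not a measure of transcription.

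Sequences under some of these peaks are given first, read from GRCm38.p6, because they carry the letters to which Notch effectors bind. The letters searched on both strands were TGGGAA and its longer form GTGGGAA for RBPJ, CACGTG together with the variants CACGCG and then CACNAG for HES and HEY proteins, GGAATG for TEAD, AGATAA for GATA and TGATTNAT for HOX/PBX. Promoter sequences were taken from the RefSeq table of that build, which listed 7 of the 10 genes with 8 starts; Hes1, Hey1 and Heyl were not matched. In the 250 bases before the start, GTGGGAA stood in 2 of the 8 promoters, Lfng and Hey2, against 5.4% of 32851 promoters in the table, and so did the shorter TGGGAA, against 21.6%. CACGCG stood in 5 of the 8 (Notch2, Jag1, Dll1, Dll4 and Lfng), against 7.6% of promoters. Dll1 has 2 starts in the table, and its match stood before the outer one (chr17:15376933-15377182). The Dll1 promoter peaks lay at the inner start (within chr17:15375587-15376670), and the bases before that start held no CACGCG. All 8 were richer in G and C, at 56% to 72%, than the median promoter of the table, at 52.4%, and the part of this in the CACGCG count was not tested. The Lfng promoter lies at chr5:140607091-140607340 on the plus strand and the Hey2 promoter at chr10:30842784-30843033 on the minus strand, and capitals mark TGGGAA on either strand and, in Lfng, CACGTG.
Lfng: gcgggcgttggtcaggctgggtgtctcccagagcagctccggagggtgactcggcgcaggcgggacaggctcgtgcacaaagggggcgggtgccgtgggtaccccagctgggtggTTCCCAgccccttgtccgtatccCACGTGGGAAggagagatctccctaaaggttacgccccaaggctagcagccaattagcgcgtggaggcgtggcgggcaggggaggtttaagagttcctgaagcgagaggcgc
Hey2: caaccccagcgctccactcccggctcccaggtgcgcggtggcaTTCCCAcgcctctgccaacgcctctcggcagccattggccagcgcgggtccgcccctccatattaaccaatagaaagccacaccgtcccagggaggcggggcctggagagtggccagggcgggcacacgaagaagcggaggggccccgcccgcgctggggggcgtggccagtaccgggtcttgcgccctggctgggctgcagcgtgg
In Lfng the letters CACGTG and GTGGGAA overlap. A match is only a description of the letters and not evidence of binding.

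Beyond the promoters, 300 bases around the summit of the best-ranked distal region were searched for 7 of the genes (Notch1, Notch2, Jag1, Dll1, Dll4, Lfng and Hes1). GTGGGAA was found in 1 of the 7, near Notch1 (TGGGAA in 2, against 21.7%), against 5.2% of 20792 distal regions of the genome with a peak in all 7 libraries, and TGATTNAT in 1, near Dll1, against 2.5%. The 200 bases at the summit are shown for these, for Notch1 with TGGGAA on either strand in capitals, from chr2:26525790-26525989, and for Dll1, with TGATTNAT in capitals, from chr17:15343138-15343337, both on the plus strand.
Notch1: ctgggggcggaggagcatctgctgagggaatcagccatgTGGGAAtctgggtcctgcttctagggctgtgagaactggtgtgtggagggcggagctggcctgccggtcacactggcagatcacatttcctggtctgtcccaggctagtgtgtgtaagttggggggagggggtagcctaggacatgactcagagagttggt
Dll1: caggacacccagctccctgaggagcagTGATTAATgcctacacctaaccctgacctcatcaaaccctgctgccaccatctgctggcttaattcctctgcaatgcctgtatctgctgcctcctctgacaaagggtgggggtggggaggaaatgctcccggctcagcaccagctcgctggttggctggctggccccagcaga

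All 10 promoters, taken as 1000 bp before to 100 bp after a curated start, carried a deposited peak in every library, and 7 of the 10 carried one with q at most 0.01 in every library (Notch1, Notch2, Jag1, Lfng, Hes1, Hey1 and Hey2). Of all genes with a curated start, 53.3% had a promoter peak in all 7 libraries and 46.1% had one at that q. Dll1 and Heyl passed in 6 libraries and Dll4 in 4. Fold enrichment is the height of the summit over the background that MACS estimated in the surrounding 10000 bp, and its highest value among the overlapping peaks is given for each promoter.

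The strongest promoter of the group was that of Hey2 (chr10:30832359-30842783, minus strand), a repressor gene of the Hes/Hey targets. Its fold enrichment was 10.8 and 10.2 in GFP+ cells, 10.1 and 11.4 in GFP- cells, 7.96 and 9.93 in Tomato+ cells and 11.0 in Tomato- cells. This placed it among the best 1.13% to 2.51% of each library's peaks. Hey1 (chr3:8663359-8667038, minus strand), its close relative, followed with 8.24 and 8.53 in GFP+, 7.31 and 8.36 in GFP-, 6.01 and 7.24 in Tomato+ and 7.99 in Tomato- cells. Hey2 lay above Hey1 in 7 of 7 libraries. In both genes the lowest value was that of Tomato+ replicate 6, and the summit stayed within 406 bp upstream of the start.

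Notch2 (chr3:98013538-98150367, plus strand), a receptor, had fold enrichments of 8.52 and 6.69 in GFP+, 5.75 and 8.41 in GFP-, 6.20 and 5.82 in Tomato+ and 7.58 in Tomato- cells. The 2 GFP- libraries differed by more than the GFP+ and Tomato+ libraries did from each other on average, and Notch2 and Hey1 could not be ordered, with Hey1 higher in 4 of 7 libraries. Notch1 (chr2:26457902-26503822, minus strand), the other receptor, gave 5.99 and 4.95 in GFP+, 3.11 and 4.53 in GFP-, 3.49 and 4.35 in Tomato+ and 3.63 in Tomato- cells. Here the 2 GFP+ libraries were above all other libraries. The Notch1 promoter region also covers the start of the noncoding gene Gm35978, so the peak cannot be given to Notch1 alone.

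Among the ligands, Jag1 (chr2:137081451-137116520, minus strand) was the most open, with 6.42 and 5.42 in GFP+, 5.81 and 5.05 in GFP-, 4.20 and 4.66 in Tomato+ and 5.55 in Tomato- cells. The 2 Tomato+ libraries were the lowest of the 7. Its peak was 951 to 1104 bp long and its summit lay 294 to 1027 bp upstream of the start, not on it. Dll1 (chr17:15367354-15376932, minus strand) ranged from 2.8 to 3.58 and Dll4 (chr2:119325784-119335666, plus strand), a ligand known from vessels and endocardium, from 2.32 to 4.25. Both extremes of Dll4 were Tomato+ libraries, 4.25 in replicate 6 and 2.32 in replicate 8, so this promoter had no stable level in that population. Summit pileups at Dll4 were only 13 to 28 tags.

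Lfng (chr5:140607341-140615545, plus strand), whose product adds sugars to Notch and so alters its response to ligands, gave 3.20 and 3.17 in GFP+, 4.0 and 3.43 in GFP-, 3.01 and 4.30 in Tomato+ and 2.48 in Tomato- cells. The 2 GFP+ libraries were nearly alike and both lay under the 2 GFP- libraries. Hes1 (chr16:30065357-30067796, plus strand), the classical Notch target, had a pair of peaks in the promoter window. The higher value of the pair ranged from 3.78 to 4.63, with an SD of 0.351 over the 7 libraries. It was 3.96 and 4.63 in GFP+, 3.78 and 4.27 in GFP-, 4.41 and 4.63 in Tomato+ and 3.90 in Tomato- cells. The peak with the higher enrichment had its summit 975 to 1232 bp upstream of the start in 5 libraries. In GFP- replicate 2 and Tomato- replicate 7 it lay 110 to 122 bp upstream. The values of these 2 libraries are therefore of another site and cannot be set directly against the rest. The fitted Hes1 differences given below are for the upstream site alone (chr16:30063098-30064513). Heyl (chr4:123233556-123249870, plus strand) ranged from 2.84 to 4.10, and its peak lay 46 to 252 bp downstream of the curated start.

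**Figure D1:**
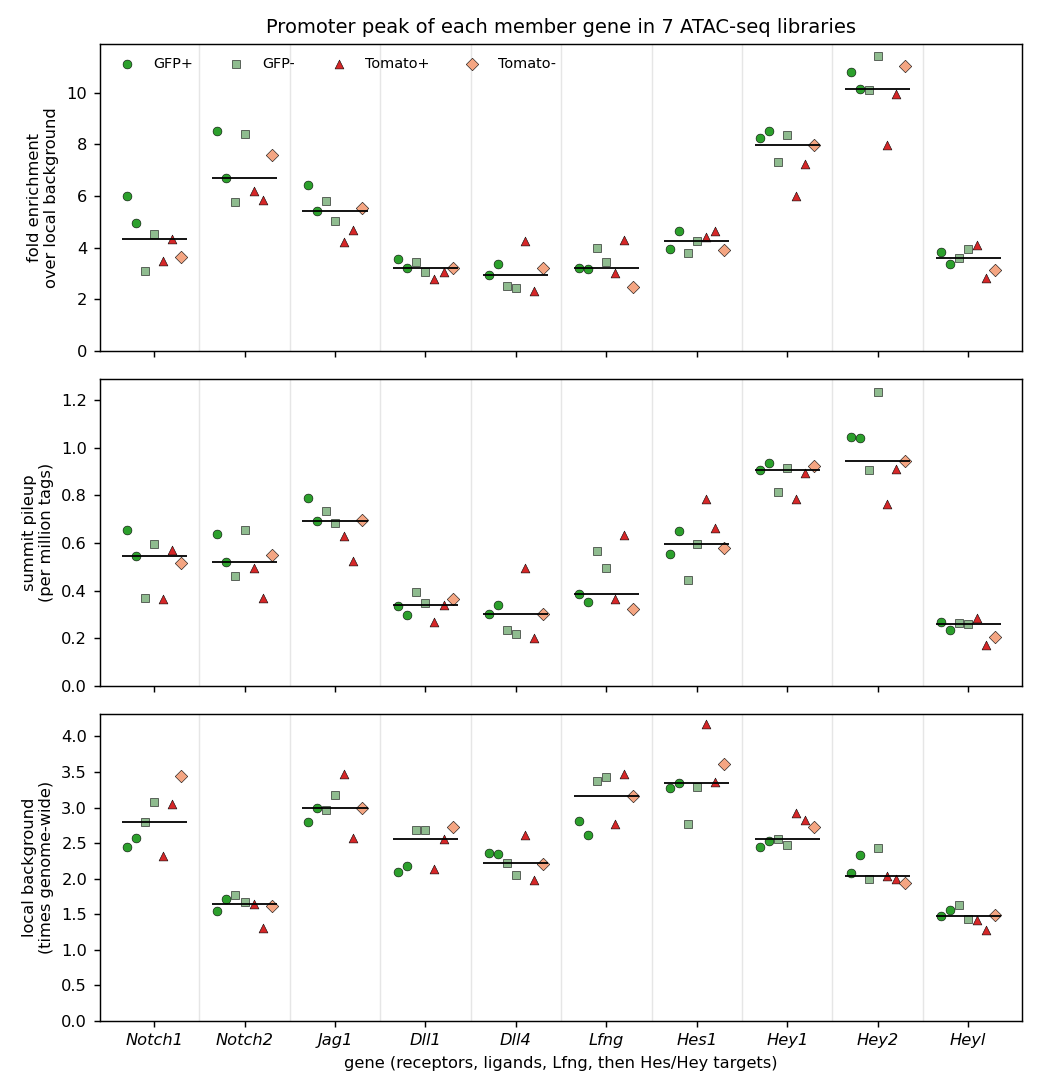
Promoter peak of each gene in each of the 7 libraries (points, coloured by population; black bar, median): fold enrichment over the local background, summit pileup per 1000000 tags and local background as a multiple of the genome-wide one. Hey2 and Hey1 are highest in the first 2 panels, and Hes1 has the highest median local background of the 10.

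The order of the genes depended on the measure. By median fold enrichment it ran Hey2, Hey1, Notch2, Jag1, Notch1, Hes1, Heyl, Dll1, Lfng and Dll4, and Hey1 with Notch2, Notch1 with Hes1, Dll1 with Lfng and Lfng with Dll4 exchanged places in 3 or 4 of the 7 libraries. By median pileup per 1000000 tags the order was Hey2, Hey1, Jag1, Hes1, Notch1, Notch2, Lfng, Dll1, Dll4 and Heyl. The local background was 2.77 to 4.17 times the genome-wide one at Hes1 and 2.57 to 3.47 times at Jag1. It was similar to that of Jag1 at Lfng (2.62 to 3.47) and Notch1 (2.32 to 3.44), and lower at Notch2 (1.30 to 1.77) and Heyl (1.27 to 1.63). The 2 measures also placed some genes differently among the 12081 genes with a promoter peak of q at most 0.01 in all libraries. The median place of Hes1 among them was in the top 85.7% by fold enrichment and the top 31.4% by pileup, that of Jag1 went from 68.7% to 22.2%, and that of Notch1 from 86.3% to 42.3%. Hey2 was near the top by both, at 9.29% and 5.53%.

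Of the 279 regions in the windows, 247 lay outside every curated promoter and 32 overlapped one. A peak was found in all 7 libraries at 38 regions (13.6%, against 16.2% of all regions) and in a single library at 91 (32.6%, against 35.4%). Among the distal regions 17 had a peak in all 7 libraries and 6 had q at most 0.01 in all 7. Notch2 had the most regions, 59, of which 42 were distal regions inside its long gene body, and Hey2 the fewest, 9. The windows also held promoters of 15 other genes, and in those of Notch1, Dll1, Dll4, Lfng and Heyl the best-ranked region was the promoter of another gene (Inpp5e, Fam120b, Vps18, Ttyh3 and Pabpc4). The files do not tie a distal region to a target gene.

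**Figure D2:**
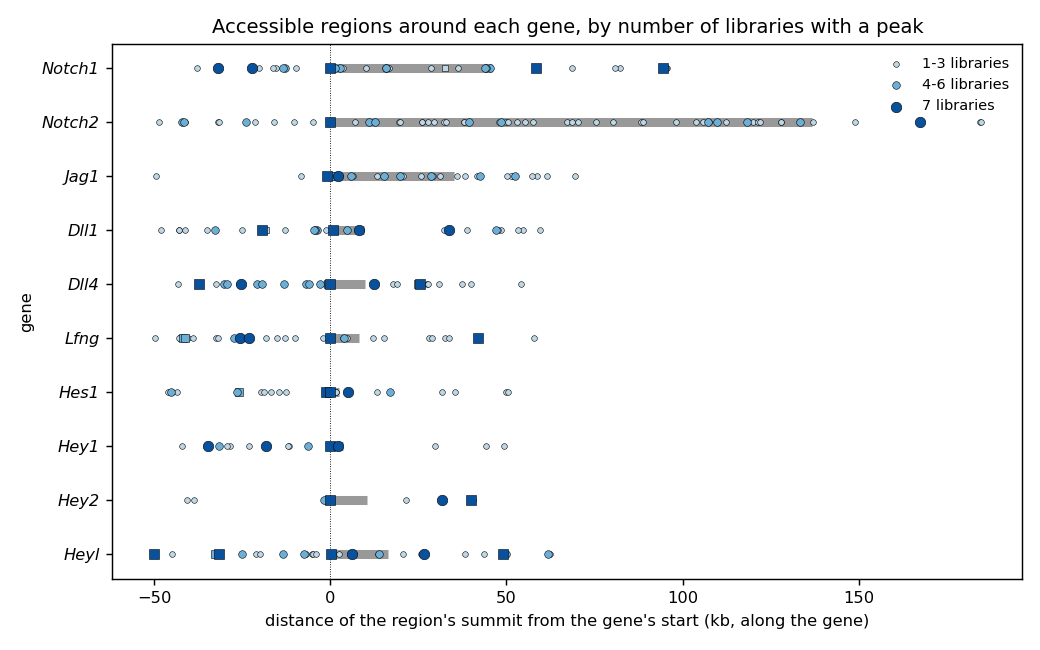
Regions around each gene by distance of the summit from the gene's start in kb, with the gene body as a grey bar; squares overlap a curated promoter (of the gene or of a neighbour) and circles do not, and larger, darker marks had a peak in more libraries. Each gene has a dark mark at its start, and most distal regions were seen in 1 to 3 libraries.

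The best-ranked distal region of those given here was found near Dll4, 12360 bp downstream of its start at chr2:119337483-119338381, between genes. Its fold enrichment was 6.0 and 5.69 in GFP+, 5.47 and 8.12 in GFP-, 4.01 and 5.36 in Tomato+ and 5.13 in Tomato- cells, above that of the Dll4 promoter in 6 of 7 libraries. The Dll1 region 33695 bp downstream (chr17:15343029-15343889) ranged from 2.96 in Tomato+ replicate 6 to 10.2 in Tomato+ replicate 8, so the 2 replicates of 1 population held both extremes. For Notch1 (22067 bp upstream, chr2:26525662-26526052), Notch2 (167458 bp downstream of its start, chr3:98180923-98181195), Jag1 (2190 bp downstream, intron 2, chr2:137114152-137114515) and Lfng (23129 bp upstream, chr5:140583926-140584496) the values lay between 2.21 and 4.52.

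A start outside the curated set stood in 2 of the 8 best-ranked distal regions given here. The Heyl region (chr4:123239439-123240132, 2.65 to 5.33), in intron 1 of the curated transcript, holds the first base of the GENCODE vM21 transcript Heyl-202 at 123239757, and it was more enriched than the curated Heyl promoter in 5 of 7 libraries. The Hes1 region (chr16:30070070-30070964, 3.29 to 4.12), 5186 bp downstream, holds the start of the predicted noncoding gene Gm32998.

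**Figure D3:**
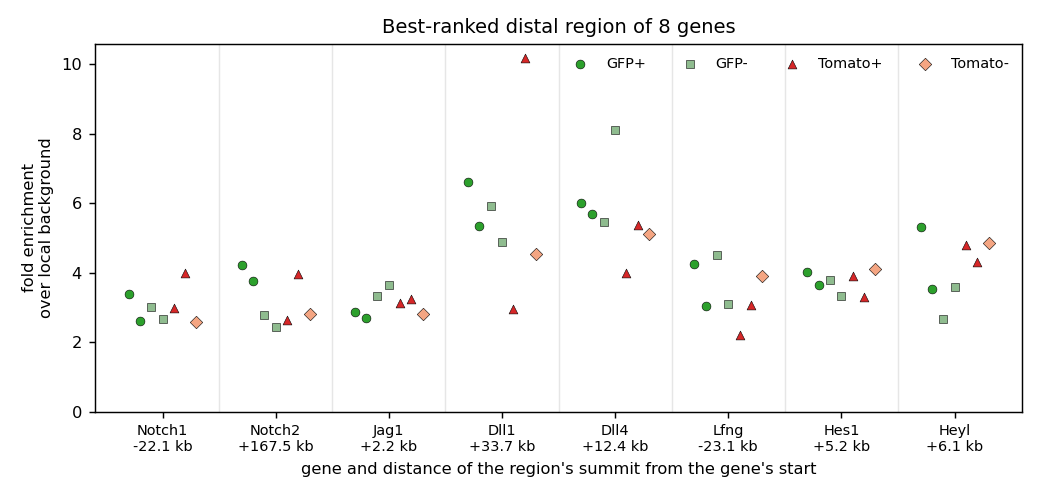
Fold enrichment of the best-ranked distal region of 8 genes in the 7 libraries, with the distance of its summit from the gene's start. The Tomato+ replicates (triangles) are widest apart at Dll1, at 2.96 and 10.2, and nearest at Jag1.

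The comparison of GFP+ with Tomato+ cells sets cells with the Hoxb1 reporter, seen in the posterior second heart field, against the Mef2c-Cre lineage. The authors found that lineage at the arterial pole and also in a structure of the venous pole, so Tomato+ cells are not anterior progenitors alone. At the promoters, GFP+ cells tended to the higher side. Ranked by fold enrichment within each library's list, the peaks of Notch1, Notch2, Jag1, Dll1, Hey1 and Hey2 stood higher in both GFP+ libraries than in both Tomato+ libraries, and none of the 10 stood the other way. Among 13955 genes with a promoter peak in all libraries, 27.1% were placed that way and 10% the opposite way, so promoters as a class tended to rank higher in the GFP+ lists. When promoters were ranked only among promoters these shares came to 17.5% and 17.3%, and Notch1, Jag1, Dll1, Hey1 and Hey2 still stood higher. The lists differ in length, and by position as a share of the list Notch1, Jag1, Dll1, Hes1, Hey1 and Hey2 stood higher (31.4% of all promoters, with 6.53% lower) while Notch2 did not, at 2.116% and 4.996% in GFP+ and 4.850% and 7.217% in Tomato+ cells. In the fit of log2 fold enrichment over 34032 regions with a peak in all libraries (limma, median-centred, adjusted by Benjamini and Hochberg), the differences were 0.48 ± 0.24 (SE) for Notch1, 0.41 ± 0.22 for Jag1, 0.34 ± 0.21 for Hey1, 0.33 ± 0.24 for Notch2, 0.24 ± 0.22 for Hey2 and 0.21 ± 0.21 for Dll1. The 4 others lay between -0.18 ± 0.23 (Lfng) and 0.00 ± 0.23 (Heyl). No adjusted p at a member promoter was under 0.63, so none of these differences passed the threshold over all regions.

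Across all member regions in this fit (38 of 279 had a peak in all libraries) limma called 0 at an adjusted p of 0.05, as it did over the genome (0% of 34032 regions). At an unadjusted p under 0.05 it held 1 of the 38, against 8.45% of all regions. That region, singled out after its values were seen, lies 25446 bp upstream of Dll4 (chr2:119300072-119300808) between genes. Its fold enrichment was 2.90 and 3.35 in GFP+, 3.72 and 4.11 in GFP-, 4.60 in Tomato- and 5.17 and 5.53 in Tomato+ cells. The log2 difference between GFP+ and Tomato+ was -0.78 ± 0.21 with an adjusted p of 0.47 (limma). The 200 bases at its summit (chr2:119300239-119300438, plus strand) are shown because it is the member region that differed most in relation to its error, with CACNAG in capitals.
Dll4 distal: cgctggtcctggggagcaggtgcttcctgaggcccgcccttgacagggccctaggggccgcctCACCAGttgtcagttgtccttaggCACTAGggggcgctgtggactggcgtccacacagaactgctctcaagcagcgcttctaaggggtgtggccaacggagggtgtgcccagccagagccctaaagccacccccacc
The letters CACNAG are common, standing in 45.9% of distal regions.

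Counted over all 279 member regions, with a region without a peak placed last, 30 ranked higher in both GFP+ than in both Tomato+ libraries and 20 the other way. The shares, 10.8% and 7.17%, were close to the 8.49% and 8.08% of all regions. The balance turned with single libraries, to 40 higher and 68 lower without Tomato+ replicate 6 and 48 and 63 without Tomato+ replicate 8, against 84 and 28 without GFP+ replicate 3 and 70 and 33 without GFP+ replicate 4. With a library left out the shares of all regions were not counted, so the turn is not shown to be particular to these windows. Regions held by both libraries of one population at q at most 0.01 with no peak at all in the other were few. There were 3 exclusive to GFP+ (1.08%, against 0.518% of all regions), 2 in Notch2 and 1 near Lfng, and 1 exclusive to Tomato+ (0.358%, against 0.397%), which is the promoter of Grifin, a neighbour of Lfng.

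The 2 Notch2 regions lie in introns of the gene. In the one in intron 2, 48547 bp from the start (chr3:98061998-98062303), fold enrichment was 4.45 and 3.41 in GFP+ cells and 3.12 and 2.95 in GFP- cells, with no peak in any Tomato+ or Tomato- library. The one in intron 1, 19699 bp from the start (chr3:98033195-98033292), was seen only in GFP+ cells, with 3.58 and 3.02, and had no peak in the remaining 5. The peaks in GFP+ cells and their absence in Tomato+ cells were fixed by the rule that picked these regions. The rest of each pattern involves 1 Tomato- library and weak peaks. A link to the mouse line or to the GFP mark was not tested. Their sequences (200 bases on the plus strand, chr3:98061986-98062185 and chr3:98033138-98033337) are those of 2 of the 3 regions exclusive to GFP+. Capitals mark TGGGAA and GGAATG and, in the first, AGATAA on either strand.
Notch2 intron 2: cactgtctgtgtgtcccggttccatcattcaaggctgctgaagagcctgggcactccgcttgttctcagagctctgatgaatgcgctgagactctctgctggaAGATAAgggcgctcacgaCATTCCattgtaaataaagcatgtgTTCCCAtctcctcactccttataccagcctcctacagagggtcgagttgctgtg
Notch2 intron 1: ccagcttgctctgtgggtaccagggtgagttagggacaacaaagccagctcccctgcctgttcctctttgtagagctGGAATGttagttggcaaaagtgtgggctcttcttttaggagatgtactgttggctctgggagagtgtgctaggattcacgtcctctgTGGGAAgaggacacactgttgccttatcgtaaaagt
In distal regions with a peak in all libraries, TGGGAA stood in 21.7%, GGAATG in 14.8% and AGATAA in 8.4% of windows of 300 bases. The region near Lfng, 31710 bp upstream (chr5:140575432-140575743), gave 3.18 and 3.21 in GFP+ cells and 2.29 in GFP- replicate 2, with no peak in the other 4 libraries. Its 300 bases at the summit, not shown, held AGATAA but neither TGGGAA nor GGAATG. All of these are weak peaks, and a peak that misses the caller's threshold in a library is not shown to be closed there.

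GFP+ and GFP- cells come from the same line, so this comparison is free of the difference between lines. The promoters of Notch1 and Dll4 ranked higher in both GFP+ than in both GFP- libraries (25% of promoters were so placed) and that of Lfng lower (11.4%). The log2 differences were 0.47 ± 0.24 for Notch1, 0.27 ± 0.29 for Dll4 and -0.28 ± 0.23 for Lfng, with adjusted p of 0.82, 0.93 and 0.90 (limma). Among member regions 23 (8.24%) ranked higher in GFP+ and 27 (9.68%) lower, against 8.62% and 8.36% of all regions. Here too the balance followed the library left out, with 76 higher and 31 lower without GFP+ replicate 3, 64 and 44 without GFP+ replicate 4, 40 and 79 without GFP- replicate 1 and 39 and 65 without GFP- replicate 2. The matching shares of all regions were not counted. Limma called 0 of the 38 at an adjusted p of 0.05 (0% of all regions), and 1 at an unadjusted p under 0.05, against 6.33% of all regions. That one was the distal region 167458 bp downstream of the Notch2 start, at 4.22 and 3.75 in GFP+ and 2.77 and 2.44 in GFP- cells, with a log2 difference of 0.55 ± 0.24 and an adjusted p of 0.79. Tomato+ cells spanned both levels there, at 2.63 and 3.96.

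Regions exclusive to GFP+ against GFP- numbered 3 (1.08%, against 0.553% of all regions). They were the intron 1 region of Notch2 given above, a further one in that intron 26150 bp from the start (chr3:98039631-98039750, 3.31 and 3.01, and 2.33 in Tomato+ replicate 8) and one 49462 bp upstream of Jag1 (chr2:137165833-137166174, 3.61 and 4.25, and 2.96 in Tomato+ replicate 6). One region was exclusive to GFP- (0.358%, against 0.478%), in intron 5 of Dll1 (chr17:15371995-15372192, 2.76 and 2.71), and both Tomato+ libraries had a peak there, at 2.39 and 2.45.

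Within the Tomato line a single Tomato- library leaves no measure of its spread. Lfng and Hes1 promoters ranked higher in both Tomato+ libraries (21.4% of promoters did) and those of Notch2, Jag1, Dll1, Hey1 and Hey2 lower (39.9%). For Hes1 this set the upstream peak in Tomato+ cells against the peak near the start in Tomato- cells. Over the regions 32 (11.5%) were higher and 65 (23.3%) lower in Tomato+ cells, against 11% and 24.8% of all regions. Without Tomato+ replicate 6 there were 94 higher and 80 lower, and without Tomato+ replicate 8 there were 81 and 100. Shares of all regions were not counted with these libraries left out. The fit, in which the lone library is assumed to vary like the others, called 0 of 38 member regions (0% of all) and held 1 at an unadjusted p under 0.05 (4.22% of all). This was 25608 bp upstream of Lfng (chr5:140581431-140581930), at 3.82 and 3.94 in Tomato+ and 2.12 in Tomato- cells, with a log2 difference of 0.88 ± 0.29 and an adjusted p of 0.999. Whether the effect of the reporter differed between lines was tested as an interaction. Limma called 0 of the 38 (0% of all regions), and 1, the Lfng promoter, had an unadjusted p under 0.05 (4.57% of all regions).

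**Figure D4:**
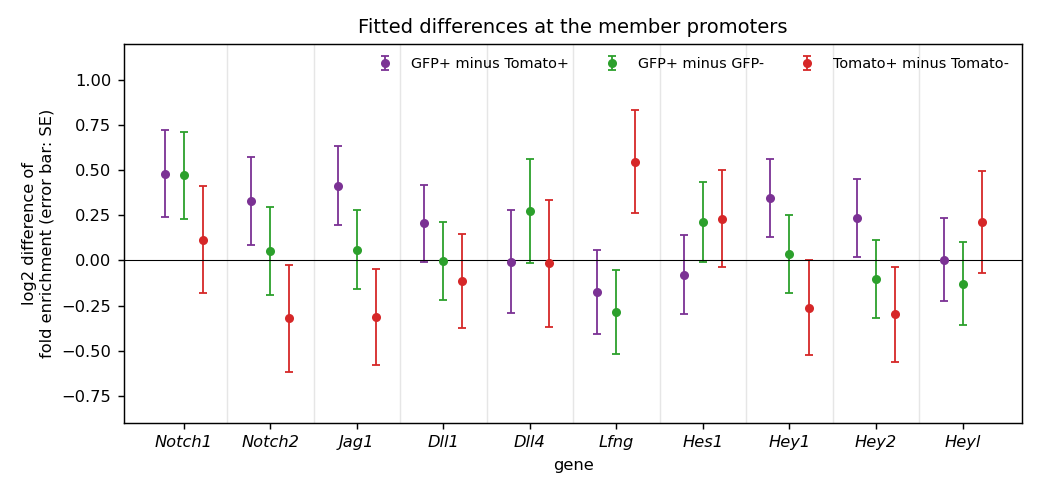
Fitted log2 difference of fold enrichment at the promoter of each gene, with its SE, for the 3 comparisons of populations. The GFP+ minus Tomato+ values of Notch1 (0.48) and Jag1 (0.41) are the highest of that comparison, and no adjusted p was under 0.05.

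The wider pathway was described with 32 further genes, of which 26 had a promoter peak in all libraries and 21 had one at q at most 0.01 in all. Levels differed widely among them. Numb, whose product restrains the receptor, ranged from 9.35 to 12.6, Adam10, a protease that cuts Notch outside the membrane, from 7.79 to 13.7, and Ncstn, part of gamma-secretase, from 7.02 to 11.8. Rbpj ranged from 5.48 to 7.23. Hes3 had no promoter peak in any library and Hes7 had one in 1 library. Of the 26, 10 ranked higher in both GFP+ than in both Tomato+ libraries and 1 lower (Mfng, a relative of Lfng), beside the 27.1% and 10% of all promoters given above. As a share of the list 12 ranked higher and 1 lower (31.4% and 6.53% of all promoters), and among promoters alone 8 and 1 (17.5% and 17.3%). Nrarp, a feedback inhibitor, had the greatest difference of mean log2 fold enrichment, 0.68.

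Depth, in tags, was 52.3 to 93.1 in units of 1000000 per library, and Tomato+ replicate 6 was the shallowest. Dll4 and Heyl ranked higher in GFP+ cells without Tomato+ replicate 6 and lower without Tomato+ replicate 8, and Lfng did the reverse. Hes1 ranked higher in GFP+ cells without GFP+ replicate 3 and lower without GFP+ replicate 4. For these 4 promoters a single library decided the direction. Promoters of the endothelial genes checked had peaks at 2 to 6 of 7 genes per library, with summed fold enrichment of 8.71 to 15.1 in GFP+, 6.54 to 20.4 in GFP-, 11.4 to 13.4 in Tomato+ and 11.7 in Tomato- cells. Their part in the ligand values was not tested. Promoters of 6 second heart field genes had peaks at 4 to 6 per library, those of 4 neural tube genes at 4 in every library, those of 3 neural crest genes at 2 to 3 and those of 4 blood genes at 1 to 3, so an open promoter did not tell these cell types apart.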

How the data were processed

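ATAC-seq was measured in 7 libraries of sorted cells pooled from E9.5 embryos. The members and gene lists were chosen with earlier results of these data known. Reads had been mapped by the authors to GRCm38 (mm10) using SNAP and filtered with SAMtools. They removed blacklisted regions and called peaks per library with MACS2 2.1.1 (the header of the list of Tomato+ replicate 6 names 2.1.0.20150731, a p limit of 0.01 and no control; the other lists have no header). As deposited, each peak has a summit pileup, which is a signal not scaled to depth. It has a fold enrichment, the ratio by the authors' caller of that height to the local background, and a −log10 p and q computed by the authors' caller within the library. Because fold enrichment is divided by the local background, it understates peaks in broadly open surroundings, and peak lists of this lenient p limit hold many weak peaks.

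Peaks were matched to genes with the RefSeq annotation of GRCm38.p6. The tags of a library were derived from its lowest background. Peaks with q at most 0.01 were merged where they shared at least 1 bp, and each region took the highest fold enrichment of the deposited peaks that overlapped it. A region ranked apart when every library of one population ranked above every library of the other. Regions with a peak in all 7 libraries were fitted with limma 3.58.1 (R 4.3.3) on log2 fold enrichment, each library centred on its median, with 1 term per population and Benjamini-Hochberg adjustment over all regions fitted, at 0.05. That filter keeps no site that is closed in a library. The procedure was tested on simulated data. Named were the promoters of all 10 genes, the distal region of each with the best mean rank (those of Hey1 and Hey2 are not reported here), and every exclusive region; those with an unadjusted p under 0.05 were named after their values were seen. Alternatives were another q limit, window, promoter width, overlap, measure or scaling, other filters and each library left out. The authors' DiffBind comparison was not repeated, since reads were not analysed here.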

Additional observations from a re-analysis of the deposited data

Results flagged for a closer look

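The Lfng promoter was flagged because the reporter effects of the 2 lines went in opposite directions. How many of all promoters do so was not counted. For the difference of the effects, 1 of 38 member regions (2.63%) had an unadjusted p under 0.05 (limma), against 4.57% of all regions. Both GFP- libraries (4.0 and 3.43) were above both GFP+ libraries (3.20 and 3.17), while both Tomato+ libraries (3.01 and 4.30) were above the Tomato- library (2.48). The difference of the effects, GFP minus Tomato on the log2 scale, was -0.83 ± 0.37 (SE) with an unadjusted p of 0.0434 and an adjusted p of 0.999 (limma), so it did not pass the threshold over all regions. The Tomato effect rests on 1 Tomato- library.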

How the results depend on the processing

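With q at most 0.0001 in place of 0.01, 76 regions were left in the windows, and those ranked apart numbered 23 (GFP+ against Tomato+), 27 (GFP+ against GFP-) and 40 (Tomato+ against Tomato-), with 1 exclusive region. Leaving out 1 library each time made ranking apart easier and gave 103 to 112, 104 to 119 and 174 to 181 regions for the same comparisons, and 21 (without GFP- replicate 2) to 68 (without GFP+ replicate 3) exclusive regions. For these counts of regions, the shares over all regions under the same settings were not counted. Member promoters ranked apart between GFP+ and GFP- cells were 5 when ranked only among promoters, 2 higher and 3 lower (17.4% and 17.8% of all promoters). With 1 library left out they were 4 to 8 (38.5% to 46.1% of all promoters were higher and 22.2% to 28.9% lower). These rankings, that by summit pileup among promoters and the position as a share of the list were chosen after seeing the data. Limma called 0 member regions in every comparison and alternative.

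Of 160 alternative values of the promoter log2 differences, 141 kept their sign and 19 reversed, none of them past the threshold on either side. For GFP+ minus Tomato+, Dll4 became 0.14 by summit pileup and ran from -0.48 to 0.46 with 1 library left out (the highest without Tomato+ replicate 6), Lfng ran from -0.40 to 0.045 (without Tomato+ replicate 8), Hes1 from -0.21 to 0.050 and Heyl from -0.23 to 0.23, with -0.0067 by quantile normalization. For GFP+ minus GFP-, Notch2 was -0.022 and Jag1 -0.036 by summit pileup, and Dll1 was 0.0052 by quantile normalization. With 1 library left out, Notch2 ran from -0.20 to 0.31, Jag1 from -0.059 to 0.18, Dll1 from -0.11 to 0.11 and Hey1 from -0.043 to 0.12. The cause was not tested.

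The replicate numbers are the last digits of the library titles and differ for every library. They do not say which libraries shared a sort or embryos, so pairing is unknown and no paired analysis was made. Peak lists give no read counts per site, so no counting interval was computed, and a median SE of 0.24 on the log2 scale for GFP+ minus Tomato+ limits what the fit could resolve. The reporter lines were compared with 2 libraries each at most.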
